A study of Mus musculus with 6 samples.

Results

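Fibroblast growth factors (FGFs) and their receptors were followed in mouse schwannoma cells after knockdown of YAP. The set held 10 genes of 23366 listed, chosen by symbol: the ligands Fgf1, Fgf2, Fgf5, Fgf7, Fgf10 and Fgf18, and the receptors Fgfr1, Fgfr2, Fgfr3 and Fgfrl1. RNA sequencing was done in SC4 cells, a Schwann cell line from a mouse schwannoma without the tumour suppressor gene Nf2, so both groups share that loss. The control group received a control siRNA and the other group pooled siRNAs directed at YAP, the Hippo pathway's transcriptional co-activator, encoded by Yap1. Cells were collected 48 hours after transfection, with 3 libraries in each group. Only 1 line was used and no label ties a library to its own culture, so the p-values speak of the spread among the libraries, part or all of which may be technical.

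FGFs are secreted or released growth factors that bind receptor tyrosine kinases at the cell surface, with heparan sulfate chains as a required partner for most of them. Bound receptors pair up and signal through the adaptor Frs2 to the Ras and MAP kinase cascade, which switches on transcription factors of the Etv family and, in turn, feedback inhibitors of the Sprouty and dual-specificity phosphatase families. Receptors occur as splice forms, IIIb and IIIc, that bind different ligands; Fgf7 and Fgf10 act on the IIIb form of Fgfr2, which is typical of epithelium. Counts per gene, as used here, do not separate these forms. In nerve, Fgf2 is known as a growth factor for cultured Schwann cells.

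The genes formed an abundant and a scarce set, and few of them were called different after YAP knockdown with 3 libraries per group. Fgfr1, Fgf7, Fgfrl1, Fgf10 and Fgfr2 had control means between 831 and 8977 normalized counts, whereas those of Fgf1, Fgf2 and Fgfr3 lay between 26.3 and 85.5 and Fgf5 and Fgf18 were near the limit of detection. Fgfrl1, a receptor without a kinase domain, was at 75.2% of the control mean after YAP siRNA and was lower in each pair of same-numbered libraries. With all 6 libraries it passed the threshold only in fits that paired libraries by number. Fgfr2 was at 136% of the control mean and was higher in each pair, with overlapping groups. Fgfr3 was at 52.2% of the control mean without overlap between groups, and Fgf2 and Fgf1 at 54.5% and 35.3% with overlap. None of these scarce genes was called in a fit that kept all 6 libraries. For Fgfr1, Fgf7 and Fgf10 the groups overlapped throughout.

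The promoters of Fgfrl1 and Fgfr2 are shown because, of the 8 tested genes, these were called in at least 1 blocked fit that kept all 6 libraries, in opposite directions, and because YAP acts through TEAD factors bound to DNA. Each sequence runs from 250 bases before the annotated start to 50 after it, taken from RefSeq on GRCm38.p6, with CpG dinucleotides in capitals. The Fgfrl1 promoter lies at chr5:108693979-108694278 on the plus strand and the Fgfr2 promoter at chr7:130266759-130267058 on the minus strand.
Fgfrl1: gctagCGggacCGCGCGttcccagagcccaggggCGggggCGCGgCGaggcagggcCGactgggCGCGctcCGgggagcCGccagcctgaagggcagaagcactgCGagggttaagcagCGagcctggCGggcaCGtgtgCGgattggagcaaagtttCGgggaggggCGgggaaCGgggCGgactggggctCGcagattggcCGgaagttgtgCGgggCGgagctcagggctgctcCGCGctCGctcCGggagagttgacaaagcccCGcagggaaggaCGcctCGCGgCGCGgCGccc
Fgfr2: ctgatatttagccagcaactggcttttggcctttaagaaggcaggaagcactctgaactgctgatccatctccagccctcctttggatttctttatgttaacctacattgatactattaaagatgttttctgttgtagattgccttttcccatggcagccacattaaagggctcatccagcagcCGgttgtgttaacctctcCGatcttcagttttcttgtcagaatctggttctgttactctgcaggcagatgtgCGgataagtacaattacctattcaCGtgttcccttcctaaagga
The Fgfrl1 window held 37 CpG dinucleotides and 73.7% G and C, against medians of 7 and 52.7% over all promoters, and the Fgfr2 window held 4 and 43.7%. Of the 10 genes, 8 matched a promoter in the table; Fgf1 and Fgfr1 did not. The core TEAD motif GGAATG was searched on both strands and occurred in 14.7% of 32851 promoters. The AP-1 motif TGANTCA, bound by Fos and Jun factors that often act beside TEAD, was searched likewise and occurred in 7.81%. Neither occurred in the 9 windows of these 8 genes, Fgfr3 having 2 starts, which says only that these letters are not in these windows.

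Libraries held 18025132 to 60078880 reads in genes, and 1 read was worth 0.461 to 1.52 normalized counts (reads divided by a size factor per library). Yap1 checked the knockdown: its normalized count was 4749.6, 5732 and 4751 in control replicates 1, 2 and 3 and 936, 571 and 475 after YAP siRNA. Replicate 1 of both groups stood apart from replicates 2 and 3, so results are given with and without it. Of 12 Schwann cell markers 9 reached a mean of 10, but the defining markers Sox10 and S100b were among those that did not; Sox10, the lineage's transcription factor, averaged 1.67 ± 2.51 (SD, n = 3) in the controls. Summed Schwann markers were 8892 to 11589 in control and 8757 to 17129.6 in YAP siRNA libraries, and summed fibroblast markers, 5 of 6 of them tested, 144831 to 349022 and 125267 to 246423. Among the fibroblast markers control means were 212139 for Col1a1, 53944 for Col3a1, 7995.5 for Pdgfra, 143 for Dcn, 109 for Thy1 and 1.38 for Lum. Endothelial, macrophage and epithelial markers summed to at most 271, 341 and 30.4, with Emcn at 0 throughout. Within these lists Pmp22 and Erbb3 were higher and Ngfr, Col1a1, Dcn, Col3a1 and Csf1r lower in the paired limma fit described next; their part in the results on FGF genes was not tested. In such bulk samples, fewer cells of a type and less RNA per cell cannot be told apart.

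Of the 10 genes, 8 reached the mean normalized count of 10 needed for testing. Fold changes are log2 differences of (normalized count + 1), YAP siRNA minus control, tested with limma over 12820 genes with Benjamini-Hochberg adjustment and a threshold of 0.05. Without pairing, limma called 0 of the 8, as it called 0.0% of all genes in either direction. That fit did not call Yap1 either, the target of the siRNA. Its limma adjusted p was 0.118 without pairing and 4.5e-04 with pairing by replicate number. At an unadjusted p under 0.05 there was 1 of 8, Fgfr3, against 12.2% of all genes; edgeR called 0 of 8 and 0.0% of all genes, and DESeq2 0 of 8 and 5.63%. Same-numbered libraries deviated together, but so did replicates 2 and 3 across numbers, so only the match of replicate 1 stands out. In the fit blocked on the replicate number limma called 1 of 8 lower, Fgfrl1, against 8.96% of all genes, and 0 of 8 higher, against 8.32%. These shares do not set the FGF genes apart from the rest. Below, "fell" and "rose" are used only of genes that passed in this blocked limma fit. None of them passed in the limma fit of all 6 libraries without the block.

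**Figure D1:**
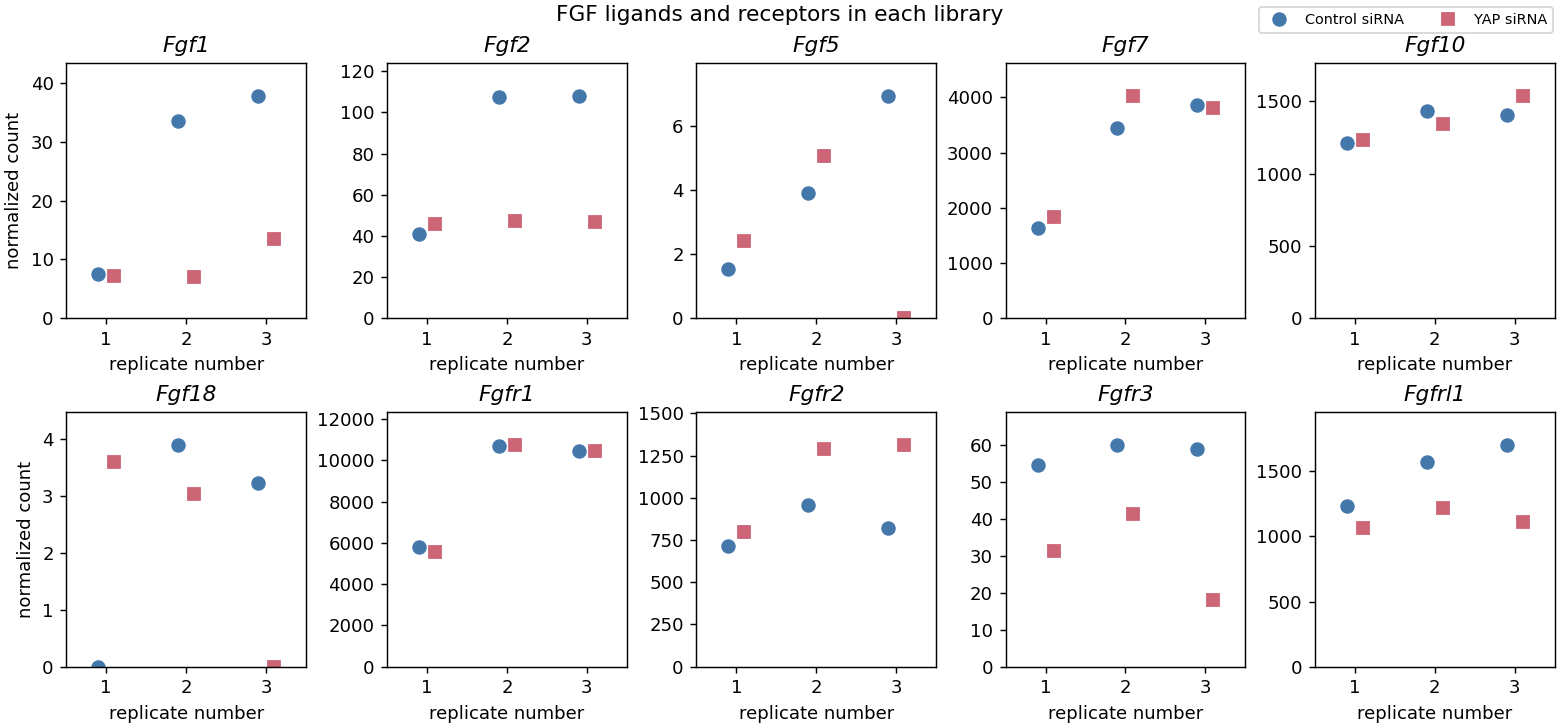
Normalized counts of the 10 FGF ligand and receptor genes (vertical axis from 0, scaled per gene) in each library by replicate number, with control siRNA as circles and YAP siRNA as squares. The 3 YAP siRNA squares lie below the 3 control circles for Fgfr3 and Fgfrl1, whereas the Fgf2 control circle of replicate 1, at 41.0, lies just below the YAP siRNA squares.

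Among the ligands, Fgf2, basic FGF, which lacks a classical signal peptide and is stored on heparan sulfate, was at 41.0, 108 and 108 normalized counts in control libraries 1, 2 and 3. After YAP siRNA it was at 45.7, 47.4 and 46.7. The 3 YAP siRNA libraries were nearly level, and the groups overlapped only through control replicate 1, which lay below all of them. The means were 85.5 ± 38.5 and 46.6 ± 0.880 (SD, n = 3), and the log2 fold change was -0.73, with a blocked 95% interval of -1.52 to 0.057 and limma adjusted p = 0.173 (blocked) and 0.575 (unblocked). Within pairs the difference was 0.15 for replicate 1, -1.16 for replicate 2 and -1.19 for replicate 3. Without replicate 1 of both groups the log2 fold change was -1.18, with limma adjusted p = 9.1e-04 (blocked) and 0.0115 (unblocked). Without replicate 2 it was -0.52 and without replicate 3 -0.51, with blocked limma adjusted p = 0.624 and 0.580.

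Fgf1, acidic FGF, which binds the kinase receptors broadly, had a similar pattern at a lower level. Its control libraries held 7.59, 33.5 and 37.8 normalized counts and its YAP siRNA libraries 7.21, 7.06 and 13.6. Control replicate 1 was again among the YAP siRNA libraries, while control replicates 2 and 3 stood above all of them. These values rest on 5, 43 and 82 reads in the controls and 6, 7 and 9 reads after YAP siRNA, and the exact Poisson 95% interval of control replicate 1, for counting error only, ran from 2.46 to 17.7 normalized counts. The log2 fold change was -1.19, with a blocked interval of -2.48 to 0.093 and limma adjusted p = 0.173 (blocked) and 0.570 (unblocked). Without replicate 1 it was -1.76, with limma adjusted p = 0.00863 (blocked) and 0.0322 (unblocked). Without replicate 2 it was -0.74 and without replicate 3 -1.08, with blocked limma adjusted p = 0.686 and 0.486.

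Reads that overlap another gene could move between Fgf2 and its neighbour. Nudt6, transcribed from the opposite strand, overlaps 640 nt, or 9.44%, of the annotated Fgf2 exons, and the strand setting of the counting is not given in the sources used here. Nudt6 had 80.4, 79.5 and 96.3 normalized counts in the controls and 96.2, 94.9 and 72.3 after YAP siRNA, with overlapping groups and a log2 fold change of 0.033, at an adjusted p of 0.943 in blocked limma. Control replicate 1, which stood far below control replicate 2 for Fgf2, lay beside it for Nudt6.

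Fgf7, keratinocyte growth factor, had the highest normalized counts of the ligands, before any correction for length. Its normalized count was 1633, 3447 and 3853 in the controls and 1825, 4019 and 3809.7 after YAP siRNA. Replicate 1 was low in both groups, and the groups overlapped throughout. The mean of replicates 2 and 3 exceeded replicate 1 by 1.16 on the log2 scale in the controls and 1.10 after YAP siRNA. In 5.90% of tested genes it exceeded replicate 1 by at least 1.10 in both groups. The log2 fold change was 0.12, with a blocked interval of -0.093 to 0.34 and limma adjusted p = 0.396 (blocked) and 0.972 (unblocked).

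Fgf10, a mesenchymal ligand needed for limb and lung budding, was the steadiest of the ligands. Its normalized count was 1215, 1436 and 1409 in the controls and 1235, 1347 and 1536 after YAP siRNA. The groups covered nearly the same range, with means of 1353 ± 120 and 1372 ± 152 (SD, n = 3). The log2 fold change was 0.018, and the blocked interval of -0.22 to 0.26 bounds the difference (limma adjusted p = 0.917 blocked and 0.989 unblocked).

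Fgf5, an inhibitor of hair growth, and Fgf18, a ligand of the growth plate of bone, were too scarce to test. Fgf5 had 1.52, 3.90 and 6.91 normalized counts in the controls and 2.40, 5.05 and 0 after YAP siRNA, from 28 reads over all 6 libraries. Fgf18 had 0, 3.90 and 3.23 in the controls and 3.61, 3.03 and 0 after YAP siRNA, from 18 reads. Both genes overlapped between groups, and a difference was not detectable at this depth. A count of 0 in YAP siRNA replicate 3 allows up to 4.52 normalized counts, and in control replicate 1 up to 4.55, taking 3 reads as the limit.

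Among the receptors, Fgfr1, the main FGF receptor of mesenchymal cells, had the highest normalized counts and did not separate the groups. Its normalized count was 5812, 10668 and 10452 in the controls and 5578, 10743 and 10459 after YAP siRNA. Each YAP siRNA library lay close to the control of the same number. Replicate 1 was low in both groups, by 0.86 and 0.93 on the log2 scale. In 9.27% of tested genes it was low by at least 0.86 in both groups. The log2 fold change was -0.016, with a blocked interval of -0.20 to 0.17 and limma adjusted p = 0.907 (blocked) and 0.995 (unblocked). Its sign turned to 0.011 when libraries were rescaled to one total.

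Fgfr2, the receptor of Fgf7 and Fgf10 in its IIIb form, was higher after YAP siRNA without passing the limma threshold. Its normalized count was 716, 958 and 819 in the controls and 799, 1287 and 1313 after YAP siRNA. The groups overlapped through YAP siRNA replicate 1, which lay below control replicates 2 and 3, while each pair pointed upward, by 0.16, 0.43 and 0.68 on the log2 scale. The means were 831 ± 121 and 1133 ± 289 (SD, n = 3), and the log2 fold change was 0.42, SE 0.131 with the block, with a blocked interval of 0.12 to 0.72. Its limma adjusted p was 0.0588 with the block and 0.556 without.

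Whether Fgfr2 passed the threshold depended on the tool and the scaling. With the block it passed in edgeR (adjusted p = 0.0461, where 9.28% of all genes were called higher), in DESeq2 (0.0403, 9.22%) and in limma after rescaling to one total (0.0477, 9.56%). Without replicate 1 its log2 fold change was 0.55, with limma adjusted p = 2.3e-05 (blocked) and 0.00772 (unblocked). Without replicate 2 it was 0.42 and without replicate 3 0.29, with blocked limma adjusted p = 0.312 and 0.365. Ctbp2 shares 314 nt, or 3.04%, of the annotated Fgfr2 exons on the same strand, and its log2 fold change was 0.22.

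Fgfr3, which restrains bone growth, was scarce and lower in each YAP siRNA library. Its normalized count was 54.6, 60.0 and 59.0 in the controls and 31.3, 41.4 and 18.1 after YAP siRNA. The controls were tight and the groups did not overlap. The means were 57.9 ± 2.86 and 30.2 ± 11.7 (SD, n = 3), and the log2 fold change was -0.99, with a blocked interval of -1.80 to -0.17. The limma adjusted p was 0.0893 with the block and 0.387 without, and an exact two-sided permutation test gave p = 0.1, the smallest that 3 against 3 libraries allow. The transcribed locus G630022F23Rik, on the opposite strand, overlaps 13.9% of the annotated Fgfr3 exons, so reads of the pair may be mixed. Without replicate 3 of both groups the log2 fold change was -0.66 (limma adjusted p = 0.466 with the block).

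Fgfrl1, which binds FGFs but carries no kinase domain, fell after YAP siRNA. Its normalized count was 1234, 1572 and 1701 in the controls and 1065, 1218 and 1108 after YAP siRNA. The groups did not overlap, and the controls were the more spread. The means were 1502 ± 241 and 1130.3 ± 79.0 (SD, n = 3), and the log2 fold change was -0.40, SE 0.116 with the block, with a blocked interval of -0.66 to -0.13. Its limma adjusted p was 0.0478 with the block and 0.418 without, and the exact two-sided permutation test gave p = 0.1, the smallest possible. The differences within pairs were -0.21, -0.37 and -0.62. With Fgfr3, it made 2 of 8 genes whose YAP siRNA libraries all lay below the controls, against 9.49% of all genes, and 0 of 8 lay above, against 9.47%.

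The call of Fgfrl1 was narrow. With the block it passed in edgeR (adjusted p = 0.0395, where 10.1% of all genes were called lower) and DESeq2 (0.0325, 10.2%), and missed in limma after rescaling to one total (0.0588) and without a mean-variance trend (0.152). Leaving out replicate 2 of both groups gave -0.42 with limma adjusted p = 0.268, and leaving out replicate 3 gave -0.29 with 0.316. In those fits 0 of the 8 genes were called, against 2.56% and 8.52% of all genes.

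**Figure D2:**
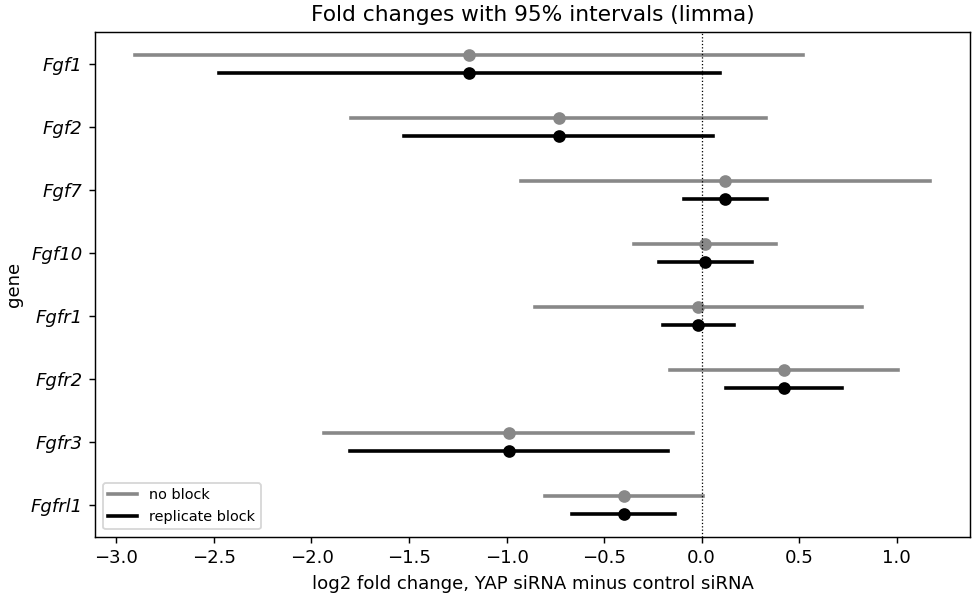
Log2 fold change (horizontal axis, YAP siRNA minus control siRNA) of the 8 tested FGF genes with 95% limma intervals, without the block in grey and with the replicate block in black. The blocked intervals of Fgfr2, 0.12 to 0.72, Fgfr3, -1.80 to -0.17, and Fgfrl1, -0.66 to -0.13, do not reach 0. Nor does the unblocked interval of Fgfr3, -1.93 to -0.043. Intervals are per gene, without adjustment over genes, and of these only Fgfrl1 was called in the blocked fit.

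Leaving out replicate 1 of both groups raised the number of calls among the FGF genes and among all genes. With the block limma then called 1 of 8 higher, Fgfr2, and 4 lower, Fgf1, Fgf2, Fgfr3 and Fgfrl1, against 22.0% and 21.8% of all genes. The log2 fold change of Fgfr3 was then -1.09, at a limma adjusted p of 0.0217, and that of Fgfrl1 -0.49, at 6.0e-05. Without the block, an alternative chosen after seeing the data, 1 of 8 was higher, Fgfr2, and 3 lower, Fgf1, Fgf2 and Fgfrl1 (adjusted p = 0.00867), against 15.3% and 16.7%. With 2 libraries left per group, these p-values rest largely on variance borrowed from other genes.

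**Figure D3:**
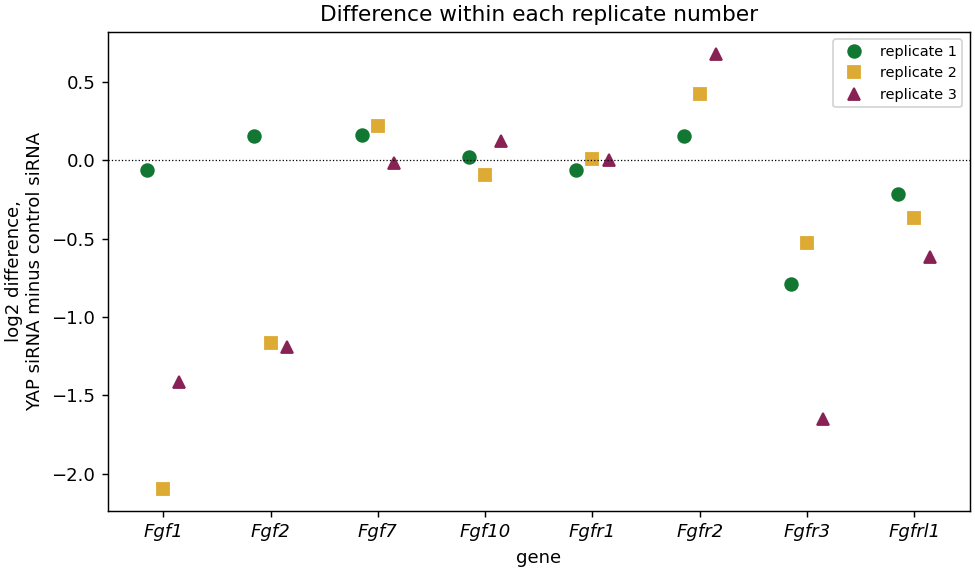
Log2 difference (vertical axis, YAP siRNA minus control siRNA) within each replicate number for the 8 tested FGF genes, with replicate 1 as circles, 2 as squares and 3 as triangles. Fgfr2 lies above 0 and Fgfr3 and Fgfrl1 below 0 at each number, while replicate 1 of Fgf1 and Fgf2, at -0.064 and 0.15, lies far from replicates 2 and 3.

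Over the 8 tested genes 5 fold changes were below 0 and 3 above. Their median was -0.21, beside 0.0094 over all tested genes, and the median size without sign was 0.41 beside 0.24. The largest fold changes, -1.19, -0.99 and -0.73, were those of the scarce Fgf1, Fgfr3 and Fgf2. Their unblocked SEs were 0.711, 0.393 and 0.443, and the part of low counts in these medians was not tested.

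Levels of different genes were compared per kilobase of the longest annotated transcript. Fgfr1 led with a control level of 1781 ± 544 normalized counts per kilobase (SD, n = 3), followed by Fgf7 at 1114 ± 442. Their control ranges, 1153 to 2116 and 611 to 1442, overlapped. Fgfrl1 followed at 645 ± 104, overlapping with Fgf7, then Fgf10 at 329 ± 29.2 and Fgfr2 at 188 ± 27.4, whose ranges did not overlap with each other or with that of Fgfrl1.

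The scarce genes lay lower still by this length. Fgf2 was at 14.3 ± 6.45 and Fgfr3 at 13.6 ± 0.674 normalized counts per kilobase in the controls, with overlapping ranges, and Fgf1 at 6.60 ± 4.10, overlapping with Fgf2. Fgf18 at 2.19 ± 1.92 and Fgf5 at 1.64 ± 1.08 were lowest and overlapped with each other and with Fgf1. Fgfr4, the remaining kinase receptor, was below the filter, with 3.03, 11.7 and 9.22 normalized counts in the controls and 2.40, 2.02 and 3.01 after YAP siRNA. Levels and their order depended on the length used. With the median transcript length the control means per kilobase were 4718 for Fgfr1, 2702 for Fgfrl1, 1976 for Fgf10, 1302 for Fgf7 and 376 for Fgfr2. Fgf2 was then at 169 and Fgfr3 at 59.8, and their control ranges, 81.1 to 213 and 56.4 to 62.0, no longer overlapped.

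**Figure D4:**
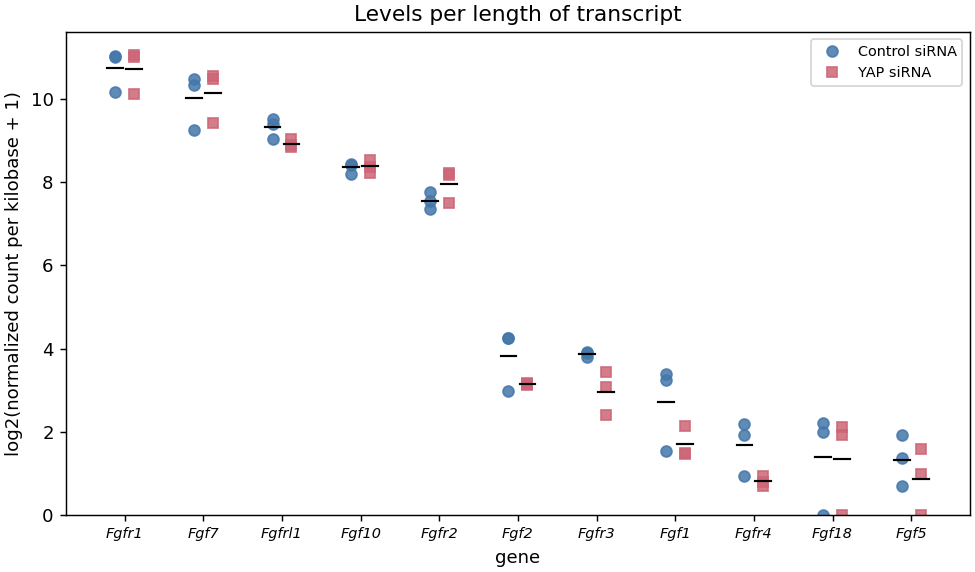
Levels as log2(normalized count per kilobase of the longest transcript + 1) (vertical axis) of the 10 FGF genes and Fgfr4 in each library, control siRNA as circles, YAP siRNA as squares, with group means of the plotted values as bars. Fgfr1 to Fgfr2 form an abundant set, and Fgf2 to Fgf5 a scarce one.

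Fgfr1 held most of the receptor level per length in both groups, while the smaller shares of Fgfr2 and Fgfr3 shifted. Of the summed level of Fgfr1 to Fgfr4, Fgfr1 held 86.8% to 91.1% in control and 85.4% to 87.6% in YAP siRNA libraries. Fgfr2 held 8.13% to 12.2% and 11.9% to 13.9%, overlapping but higher after YAP siRNA at each replicate number. Fgfr3 held 0.602% to 0.969% in control and 0.179% to 0.569% in YAP siRNA libraries, without overlap, and the groups did not overlap by the median transcript length either. For each 100 units of Fgfr1 per length there were 45.9, 31.9 and 35.2 of Fgfrl1 in control replicates 1, 2 and 3 and 41.3, 24.5 and 22.9 after YAP siRNA. That ratio was lower after YAP siRNA at each number, but replicate 1 was highest in both groups and the groups overlapped.

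Among the 6 ligands, by the longest transcript, Fgf7 held 66.7% to 79.3% of the summed level per length in control and 68.5% to 81.5% in YAP siRNA libraries. Fgf10 held 18.8% to 32.3% and 17.7% to 30.1%. By the median transcript length the order of the pair turned. Fgf10 then held 51.4% to 68.8% in control and 51.3% to 66.7% in YAP siRNA libraries, and Fgf7 27.7% to 42.1% and 29.5% to 45.9%. By either length the ranges of the groups overlapped.

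Genes whose levels followed each FGF gene over the 6 libraries were ranked by the root mean square of the log2 difference after centring each gene, as a description over libraries that share size factors. Fgfr1 was followed most closely by Fhl2 at 0.027, Col6a1 at 0.034 and Igf2r at 0.040. Among the closest to Fgfrl1 were Skiv2l at 0.045 and Hivep2 at 0.047, and Fgfr2 was followed by Tifa at 0.050, Vwa5a at 0.055 and Tmem203 at 0.056. For Fgf10 these were Xist at 0.023, Ncoa7 and Tab3, both at 0.038, and for Fgf7 Fkbpl at 0.060, Mta2 and Idua, both at 0.062. Fgf2 was followed by Gxylt2 at 0.071, Abhd3 at 0.097 and Gpr155 at 0.099. The scarce genes had looser partners, namely Kcnf1 at 0.135, Dnahc6 at 0.211 and Celsr2 at 0.232 for Fgf1, and Htr2a at 0.175, Tmem74 at 0.201 and Pstpip2 at 0.206 for Fgfr3. Among the FGF genes themselves the closest pair was Fgf7 and Fgfr1, at 0.145.

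The other genes of the pathway were read from lists chosen with earlier results of these data known, so an excess of calls in them is no independent result. They held 81 tested genes, of which limma called 6 higher and 20 lower with the block and 0 without it. Of all tested genes 8.32% and 8.96% were called higher and lower with the block. The counts per list that follow stand beside these same shares of all genes and are descriptions; no list was tested as a whole. All 26 were also called without replicate 1, where 22.0% of all genes were called higher and 21.8% lower. Without replicate 3, 16 were still called, against 8.52% of all genes in either direction, and without replicate 2, 7, against 2.56%. Of 16 other genes of the FGF family and Fgfr4, 4 were tested and 0 called, with a median log2 fold change of -0.89. Fgf14, named after its value was seen, was at 0.22, while Fgf15, Fgf16 and Fgf21 were below 0. The smallest p among the tested genes of this list belonged to Fgf15, the ligand of bile acid feedback in the gut. It had 37.9, 92.0 and 72.8 normalized counts in the controls and 24.0, 49.4 and 18.1 after YAP siRNA, for a log2 fold change of -1.16 that missed the threshold in blocked limma, at an adjusted p of 0.0637.

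Of 16 tested co-receptors and ligand carriers, which meet the ligands at the cell surface, 5 fell and 1 rose (8.96% and 8.32% of all genes), with a median of -0.37. Without replicate 2 of both groups these counts were 1 and 0, in a fit that called 2.56% of all genes in either direction. Gpc1, a glypican that carries heparan sulfate, fell from a mean of 28684 ± 8076 normalized counts to 13869.8 ± 1847 (SD, n = 3), or to 48.4% of the control mean, at an adjusted p of 0.0018 in blocked limma. The syndecans Sdc3 and Sdc1 fell, with log2 fold changes of -1.32 and -0.54, and so did Flrt3, a membrane protein that binds FGF receptors, with -0.49. Fgfbp1, which releases FGFs from the matrix, and the syndecan Sdc4 were named after their values were seen. Fgfbp1 averaged 28.9 ± 6.13 and 4.89 ± 4.81 normalized counts (SD, n = 3), which is -2.88 as a log2 fold change (limma adjusted p = 0.041). Its YAP siRNA values rest on 8, 5 and 0 reads, and its differences within pairs were -1.16, -2.30 and -5.17. Sdc4 rose, with 0.54 (limma adjusted p = 0.033). Without replicate 2 only Gpc1 of these co-receptors and carriers was called.

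Of 13 tested enzymes that build or modify heparan sulfate, 4 fell and 0 rose (8.96% and 8.32% of all genes), with a median of -0.068. Ndst3 and Ndst2, which add sulfate to nitrogen atoms of the chain, fell, with log2 fold changes of -0.95 and -0.35. Ext1, which extends the chain, was at -0.47 and Hs6st1, a sulfotransferase, at -0.79. Without replicate 2 of both groups 0 of the 13 were called, against 2.56% of all genes in either direction.

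Of 27 tested signal transducers, 4 rose and 2 fell (8.32% and 8.96% of all genes), with a median of -0.014. Stat3, a transcription factor shared with cytokine receptors, rose from 2696, 2339 and 2120 normalized counts in control replicates 1, 2 and 3 to 3168, 4695 and 4928 after YAP siRNA, without overlap. Its log2 fold change was 0.82 (limma adjusted p = 0.015 with the block). The adaptors Shc1 and Gab1 rose with 0.63 and 0.44. Frs2, the adaptor bound to the receptors themselves, and Sos2, an activator of Ras, fell with -0.32 and -0.41 and were named after their values were seen. Without replicate 2 of both groups 0 of the 27 were called, against 2.56% of all genes in either direction.

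Of the feedback inhibitors and transcriptional targets that were called, all but Spry1 fell. Of 11 tested inhibitors, 4 fell and 1 rose (8.96% and 8.32% of all genes), with a median of -0.23. Dusp5, a phosphatase of ERK, fell from 3602, 1662 and 1847 normalized counts in control replicates 1, 2 and 3 to 1321, 685 and 645 after YAP siRNA, or -1.41 as a log2 fold change (limma adjusted p = 7.3e-04). Spred3 was at -1.36 and Spry4, a Sprouty protein, at -1.38. Its relative Spry1 went the other way, from 206, 294 and 366 to 377, 837 and 909 (log2 fold change 1.23, limma adjusted p = 0.0034). Dusp7, named after its value was seen, fell with -0.51. Of 10 tested targets, 5 fell and 0 rose (8.96% and 8.32% of all genes), with a median of -0.71. Etv4 and Etv5, transcription factors switched on by FGF signals in development, fell with -1.67 and -1.86 (limma adjusted p = 0.0032 and 0.0034). Etv5 had 856, 459 and 489.8 normalized counts in the controls and 400.3, 114 and 87.4 after YAP siRNA, so that both its control replicate 1 and its YAP siRNA replicate 1 were the highest of their group. The early response gene Ier3 fell with -1.16, Fosl1, an AP-1 subunit, with -0.70, and Ccnd1, cyclin D1, named after its value was seen, with -0.87. Without replicate 2 of both groups 1 inhibitor was called higher and 2 lower, and 3 targets lower. That fit called 2.56% of all genes in either direction. These genes also respond to other receptors.

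**Figure D5:**
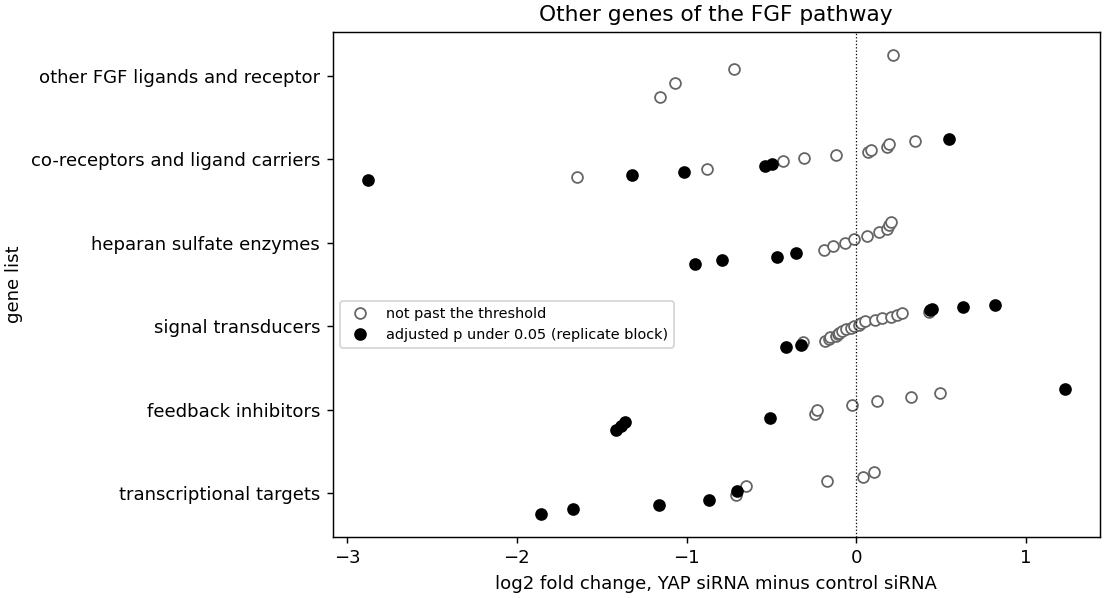
Log2 fold change (horizontal axis, YAP siRNA minus control siRNA) of each tested gene in 6 lists of the FGF pathway, with filled circles for an adjusted p under 0.05 in limma with the replicate block and open circles for the rest; height within a list only separates points. Filled circles lie to the left in the targets, 5 of 10, and on both sides in the transducers.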

How the data were processed

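Poly(A) RNA of 6 libraries was sequenced. The submitters' processing notes name TopHat2 2.0.9, then HTSeq 0.6.1 and DESeq 1.14.0, with build mm9. They state neither annotation nor strand setting nor filters. The signal values the authors deposited are counts per gene over a library's size factor. All values above 0 (100%) were whole multiples of 1 read within 0.01 reads, so reads were recovered. Libraries within a group differed by more than sampling noise (chi-square per degree of freedom 8.31 to 282).

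The test was limma 3.58.1 (R 4.3.3, mean-variance trend, two-sided) on log2(value + 1) for genes whose mean reached 10. Deviations from group means correlated at 0.788, 0.705 and 0.532 for same-numbered libraries. All were above 0.1, the limit set for treating libraries as paired by number. The best other numbers gave -0.620, 0.552 and 0.516, so replicates 2 and 3 pass that limit when swapped as well. YAP siRNA replicate 3 correlated better with control replicate 2 than with control replicate 3. The check shows replicate 1 shifted alike in both groups and cannot tell whether replicates 2 and 3 pair. No label states a pairing by number. The blocked fit is given beside the unblocked main one. On recovered reads edgeR 4.0.16 called 0 genes and DESeq2 1.42.0 called 722 without the block. The procedure was tested on simulated data.

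Members and lists were chosen with earlier results of these data known. Named genes were the 10 members, Yap1, Fgfr4, Nudt6, up to 4 genes per list with the smallest p among those passing with the block (1 where none passed), and the 3 genes most like each member. Some genes that these rules select are not reported here. Transcript lengths and overlaps came from GENCODE M21 and promoters from RefSeq, both on GRCm38. Intervals of counts cover counting error only.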

Additional observations from a re-analysis of the deposited data

How the results depend on the processing

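Without the block, 0 of the 8 tested FGF genes were called lower and 0 higher; with the replicate block these counts were 1 and 0, and the calls over all genes rose from 0 to 2216. Leaving out libraries without the block gave 0 to 3 lower, 0 to 1 higher and 0 to 4117 over all genes, and DESeq2 gave 722 over all genes. Leaving out a pair in the fit with the replicate block gave 0 to 4 lower, 0 to 1 higher and 328 to 5631 over all genes (1086 without replicate 3). With the replicate block, 0 were lower after rescaling to one total, without a mean-variance trend (30 over all genes) and at an adjusted p under 0.01 (619 over all genes), and 1 was higher after rescaling, in edgeR and in DESeq2. Cases where a sign turned were those of fold changes near 0. Fgf7 ran from -0.26 to 0.49 and Fgf10 from -0.066 to 0.092 without the block as libraries were left out, and Fgf10 from -0.035 to 0.073 with it. Fgfr1 was 0.011 after rescaling to one total and 0.018 after quantile normalization, with or without the block, and ran from -0.30 to 0.29 without and -0.029 to 0.0055 with the block as libraries were left out. The cause was not tested. Fgf1, Fgf2, Fgfr3, Fgfrl1 and Fgfr2 kept their sign under the alternatives run. Depth limits Fgf5, Fgf18 and Fgf1, which had 28, 18 and 152 reads in all.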

Other observations

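Other scarce ligands shared the layout of Fgf1 and Fgf2, in which control replicate 1 lies at or below the highest YAP siRNA library and control replicates 2 and 3 lie above it; this layout was noticed after the values were seen and is given as a description. Fgf21, a metabolic hormone, had 7.59, 31.2 and 39.2 normalized counts in control replicates 1, 2 and 3 and 9.62, 15.1 and 6.03 after YAP siRNA. Fgf16, a ligand of heart development, had 12.1, 45.2 and 87.5 in the controls and 14.4, 25.2 and 28.6 after YAP siRNA. With Fgf15, these were 3 of the 4 tested genes among the other FGFs, beside 2 of the 8 tested FGF genes. Fgf14 lacked the layout, its YAP siRNA libraries all lying above the controls. Among the co-receptors and carriers Fgfbp3, Gpc2, Gpc6, Hspg2 and Flrt1 had it too. Of all tested genes 2128, or 16.6%, had the layout. Control replicates 2 and 3 also held the most reads, and the part of depth or of replicate 1 in the layout was not tested.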
